A study of Mus musculus with 6 samples.

Results

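Kupffer cells are the resident macrophages of the liver, and 10 genes that mark them were read in bulk liver RNA: Clec4f, Timd4, Vsig4, Cd5l, Adgre1, Csf1r, Marco, C1qa, C1qb and C1qc. They were chosen by name, and all 10 were found among the 41838 genes of the expression table, each in 1 row. The livers came from 3 Alkbh5flox/flox mice, here flox, and 3 Alkbh5-HKO mice, here HKO, whose sample titles read Alkbh5-CKO. The mice were 9 weeks old in the series text, and had 9 weeks of normal chow in the extract protocol. The promoter that drives the recombinase, the cells in which Alkbh5 was deleted, the sex of the mice and whether both groups carried a recombinase are left unstated by the sources used here. The series addresses the effects on liver function of ALKBH5, an enzyme that removes the N6-methyladenosine mark from RNA.

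Kupffer cells sit in the liver sinusoids, where they take up bacteria, aged red cells, apoptotic bodies and complement-coated particles from portal blood. They depend on signalling through CSF1R for survival, and the factors PU.1, LXR-alpha, ID3 and SPIC are known for their part in Kupffer cell or related macrophage identity. In mice CLEC4F is close to exclusive to these cells, whereas ADGRE1, CSF1R and C1q are shared by other macrophages. Levels are given as FPKM, which divides the fragments of a gene by its length and by a library size and so allows levels of different genes to be compared.

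Alkbh5 itself was at 17.8, 16.8 and 14.8 FPKM in the 3 flox livers, in library order, and at 0.508, 0.443 and 0.476 in the HKO livers, in the direction of the labels. Recovered depth was 14907384 to 17034754 reads per library. The hepatocyte list of 10 genes summed to 54278 to 65372 FPKM in flox and 59571 to 62381 in HKO, so the markers of the liver label were present. The 10 Kupffer cell markers together took 0.0492%, 0.0315% and 0.0520% of the reads in the flox livers, by library number, against 0.0380%, 0.0657% and 0.0367% in the HKO livers. The widest exact binomial 95% interval of these shares ran from 0.0644% to 0.0669%, and such intervals cover counting error only. HKO library 1 stood apart from every other library of its group in a way that followed the base composition of transcripts, so results that rest on it are given with and without it.

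The promoters of 4 markers are shown because the marker transcripts moved together from library to library. Each run holds the 250 bases before the start that RefSeq's table gives on build GRCm38.p6, on the gene's own strand. That start equals the deposited gene start for Vsig4 and Clec4f. It lies 23 bases upstream of it for C1qb and downstream of it for C1qc, where the last 18 bases of the window fall inside the deposited gene. Capitals mark the letters GAGGAA or their reverse complement, the core recognised by the ETS factors PU.1 and SPIC. The windows are chr4:136886201-136886450 for C1qb and chr4:136892915-136893164 for C1qc, both on the minus strand. Those of Vsig4 at chrX:96293439-96293688 and of Clec4f at chr6:83656117-83656366 are on the minus strand too.
C1qb promoter: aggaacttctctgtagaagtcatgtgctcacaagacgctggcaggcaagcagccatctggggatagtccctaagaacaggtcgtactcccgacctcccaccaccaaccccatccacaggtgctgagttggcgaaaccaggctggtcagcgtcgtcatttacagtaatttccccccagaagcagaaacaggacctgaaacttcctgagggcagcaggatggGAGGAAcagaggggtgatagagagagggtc
C1qc promoter: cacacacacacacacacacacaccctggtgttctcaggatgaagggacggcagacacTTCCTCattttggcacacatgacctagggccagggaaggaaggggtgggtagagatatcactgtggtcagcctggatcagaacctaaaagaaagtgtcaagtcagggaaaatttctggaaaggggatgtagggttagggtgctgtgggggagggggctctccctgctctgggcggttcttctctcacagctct
Vsig4 promoter: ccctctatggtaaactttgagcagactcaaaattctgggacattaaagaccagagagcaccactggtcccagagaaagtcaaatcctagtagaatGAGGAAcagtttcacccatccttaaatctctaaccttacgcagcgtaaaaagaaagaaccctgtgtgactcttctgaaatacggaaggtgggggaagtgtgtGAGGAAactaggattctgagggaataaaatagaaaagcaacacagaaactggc
Clec4f promoter: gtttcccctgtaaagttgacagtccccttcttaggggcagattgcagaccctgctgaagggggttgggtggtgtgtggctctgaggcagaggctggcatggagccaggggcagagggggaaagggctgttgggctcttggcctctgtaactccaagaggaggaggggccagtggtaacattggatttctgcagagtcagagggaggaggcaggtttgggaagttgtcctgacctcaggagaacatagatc

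Promoter windows were matched for 7 of the 10 markers: C1qb, C1qc, Cd5l, Clec4f, Marco, Timd4 and Vsig4. With both strands searched, GAGGAA lay in 5 of the 7 windows, against 23.2% of 32851 windows of the same length over all genes. It lay 30 to 25 bases before the start in C1qb and 193 to 188 bases before it in C1qc, and 2 times in Vsig4. Clec4f and Timd4 had no such letters in this window. The RBPJ core TGGGAA lay in 2 of 7 windows (Clec4f and Marco) against 21.6% of all. No match of 1 of these motifs shared a base with a match of another in these 7 windows. Such matches are descriptions of letters and were not tested for binding.

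None of the 10 markers passed between HKO and flox livers, and in all 10 the libraries of the groups overlapped. The test was limma on log2 of FPKM + 1 over the 10453 genes whose mean FPKM reached 1, with Benjamini-Hochberg (BH) adjustment at 0.05. All 10 markers were among the genes tested, and the background was 0.488% of tested genes called and 25.4% not overlapping between groups (12.8% with HKO higher and 12.6% with HKO lower). At an unadjusted p under 0.05 limma called 0 markers, against 17% of all tested genes, and limma's voom on the recovered reads called 0 after BH. Log2 fold changes of the markers, HKO minus flox, ran from -0.38 for Vsig4 to 0.28 for Cd5l, 4 above and 6 below 0. Their median was -0.11, beside -0.02 over all tested genes. BH adjusted p-values by limma were 0.508 to 0.975. In a bulk sample, fewer cells of a type and less of a transcript per cell cannot be told apart.

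**Figure D1:**
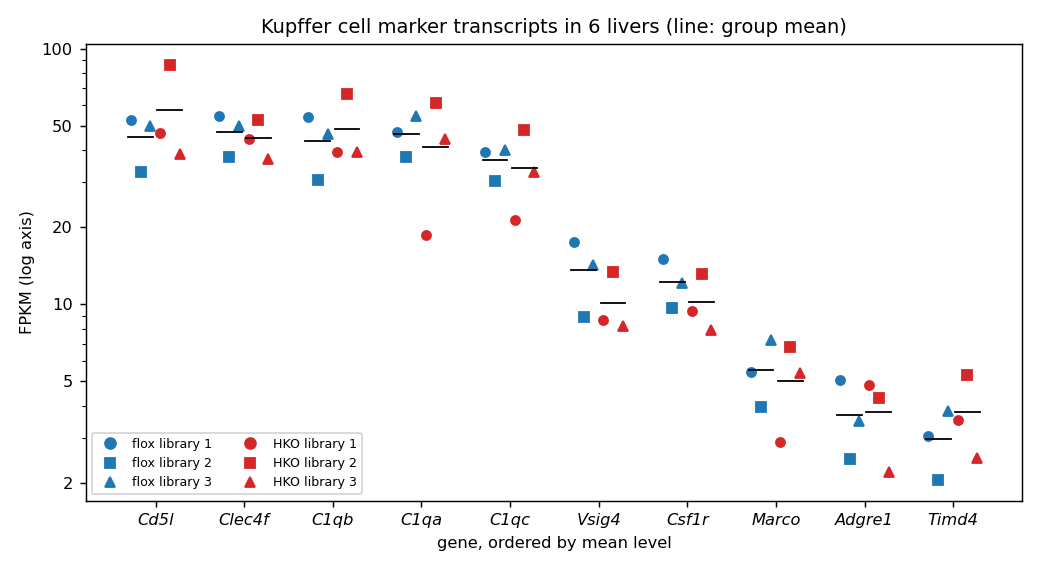
FPKM on a log axis for the 10 Kupffer cell markers in each of 6 livers, with flox in blue, HKO in red, symbols for the library number and a black line at each group's mean. Flox library 2 is the lowest flox library for every marker, HKO library 2 is the highest HKO library for all but Adgre1, and the groups overlap for each gene.

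Clec4f encodes a galactose-binding lectin of the Kupffer cell surface. It was at 54.7, 37.6 and 49.95 FPKM in flox livers and 44.3, 52.7 and 36.9 in HKO livers, numbered 1 to 3 in each group. The 2 lowest livers, flox 2 and HKO 3, thus came from different groups. Its log2 fold change of -0.08 had a 95% interval of -0.54 to 0.38, the narrowest of the 10 markers, and its adjusted p by limma with BH was 0.849. The coefficient of variation over the 6 livers was 16.7%, where counting alone gives 2.37% at its mean depth.

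Cd5l encodes a secreted protein of the scavenger receptor family that macrophages release into blood. Its level was 52.4, 33.0 and 49.8 FPKM in flox and 46.6, 86.5 and 38.8 in HKO, in library order. HKO library 2 stood above the other 5 livers, and the HKO mean of 57.3 ± 25.6 against 45.1 ± 10.5 in flox (SD, n = 3) rested on it. The log2 fold change was 0.28 (95% interval -0.47 to 1.03, adjusted p by limma with BH 0.678), and -0.05 without that library.

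Timd4 encodes TIM-4, a receptor for phosphatidylserine on dying cells that is kept by long-lived resident Kupffer cells. It was the least abundant marker, at 3.06, 2.06 and 3.83 FPKM in flox and 3.54, 5.29 and 2.51 in HKO, from 66 to 224 reads per library. The 66 reads of flox library 2 carry an exact Poisson 95% interval of 51.0 to 84.0. Its log2 fold change was 0.25 (95% interval -0.35 to 0.84, adjusted p by limma with BH 0.647), with the groups overlapping.

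Vsig4 encodes CRIg, the complement receptor with which Kupffer cells clear C3b-coated bacteria. It was at 17.6, 8.90 and 14.2 FPKM in flox and 8.68, 13.4 and 8.24 in HKO. HKO libraries 1 and 3 lay below every flox library, and HKO library 2 lay between flox libraries 2 and 3. Means were 13.6 ± 4.39 in flox and 10.1 ± 2.84 in HKO (SD, n = 3). The log2 fold change of -0.38 was the lowest of the markers, with a 95% interval of -1.01 to 0.26, and limma's BH adjusted p was 0.508. The overlap rested on HKO library 2 and flox library 2, so leaving out either of them was bound to end it. Without them in turn, 33% and 31.7% of all tested genes did not overlap. The log2 fold change of Vsig4 was -0.58 without HKO library 2 (adjusted p by limma with BH 0.408) and -0.63 without flox library 2 (0.404).

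Csf1r, the receptor for the macrophage growth factors CSF1 and IL-34, had the same order of libraries as Vsig4, except that flox library 3 and HKO library 2 changed places. Its values were 15.1, 9.66 and 12.1 FPKM in flox and 9.46, 13.1 and 7.96 in HKO. The log2 fold change was -0.25 (95% interval -0.77 to 0.26, adjusted p by limma with BH 0.584). It was the only marker beside Vsig4 whose groups stopped overlapping when HKO library 2 was left out, a setting in which 2 of 10 markers and 33% of all tested genes did not overlap.

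Adgre1 encodes the adhesion receptor by which mouse macrophages are usually stained. It was at 5.06, 2.48 and 3.50 FPKM in flox and 4.82, 4.31 and 2.22 in HKO. It was the 1 marker in which HKO library 1 was the highest of its group. Means of 3.68 ± 1.30 and 3.78 ± 1.38 (SD, n = 3) gave a log2 fold change of 0.02, with a 95% interval of -0.64 to 0.68.

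Marco encodes a scavenger receptor that binds bacteria and particles. Its level was 5.43, 3.95 and 7.29 FPKM in flox and 2.89, 6.84 and 5.38 in HKO. HKO library 1 was the lowest of the 6 livers. The log2 fold change was -0.15 with all libraries (95% interval -0.83 to 0.54, adjusted p by limma with BH 0.817) and 0.14 without HKO library 1.

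**Figure D2:**
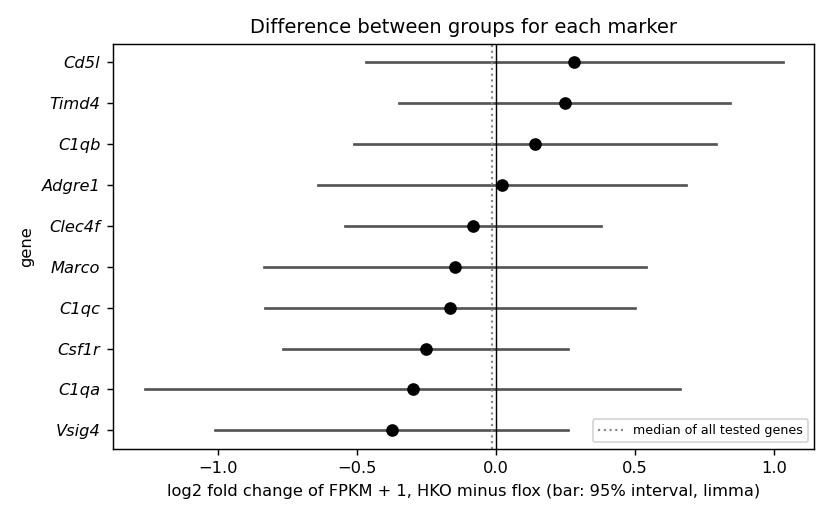
Log2 fold change of FPKM + 1, HKO minus flox, for each marker, with bars for limma's 95% interval and a dotted line at the median of all tested genes. Points lie between -0.38 and 0.28, and every interval spans 0.

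The genes C1qa, C1qb and C1qc encode the A, B and C chains of C1q, the recognition part of the first complement component, and assemble into 1 protein. In liver they are expressed mainly by Kupffer cells. They lie side by side on the minus strand of chromosome 4 in GRCm38.p6: C1qb at 136880145 to 136886177, C1qc at 136889802 to 136892932 and C1qa at 136895916 to 136898844. No other gene of the deposited annotation overlaps them. C1qa was at 47.3, 37.6 and 54.4 FPKM in flox and 18.7, 61.2 and 44.2 in HKO. The values of C1qb were 54.2, 30.6 and 46.2 in flox and 39.6, 66.2 and 39.4 in HKO. C1qc stood at 39.4, 30.5 and 40.2 in flox and 21.3, 48.0 and 32.9 in HKO. HKO library 2 was the highest of all 6 livers for each of the chains, and HKO library 1 was the lowest for C1qa and C1qc but not for C1qb. Log2 fold changes were -0.30 for C1qa (95% interval -1.26 to 0.66), 0.14 for C1qb (-0.51 to 0.79) and -0.17 for C1qc (-0.83 to 0.50), with adjusted p-values of 0.731, 0.814 and 0.783 by limma with BH. Without HKO library 1 they were 0.18, 0.26 and 0.12, so C1qa and C1qc changed sign without that library.

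The ratios between the chains ran from 0.874 to 1.38 in 5 of the 6 livers, and HKO library 1 lay outside the range of the others for each pair. The ratio of C1qa to C1qb was 0.874, 1.23 and 1.18 in flox and 0.924 and 1.12 in HKO libraries 2 and 3, but 0.473 in HKO library 1. The C1qa to C1qc ratio was 1.2 to 1.35 in 5 livers and 0.877 in HKO library 1. HKO library 1 also held the highest C1qb to C1qc ratio, 1.86, against 1.003 to 1.38 in the others. These departures come from 324 reads of C1qa, 673 of C1qb and 383 of C1qc, a depth at which the exact Poisson 95% interval of the C1qa count is 290 to 361.

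The levels in HKO library 1 moved with transcript GC content. Over the 9176 tested genes with a GENCODE transcript, log2 FPKM + 1 in this library minus the mean of HKO libraries 2 and 3 had a Spearman rank correlation of -0.58 with GC, as a description across genes of the same libraries. The median difference went from 0.35 in the lowest of 5 equal bins of GC to -0.31 in the highest. C1qa, at 59.5% GC and with the shortest GENCODE transcript of the markers, was at -1.43, lower than all but 0.938% of tested genes. C1qc (57.5% GC) and Marco (54.5%) were at -0.87 and -0.86, C1qb (57.4%) at -0.36 and Adgre1 (47.2%) at 0.49. With the curve on GC removed from each library, an alternative chosen after the data were seen, the difference was still -1.07 for C1qa, -0.58 for C1qc and -0.68 for Marco. Transcript length moved with this difference as well, with a rank correlation of 0.34 over all genes and 0.84 over the 10 markers. Over the same 10 markers the rank correlation with GC was -0.78. The part of length in the result was not tested.

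**Figure D3:**
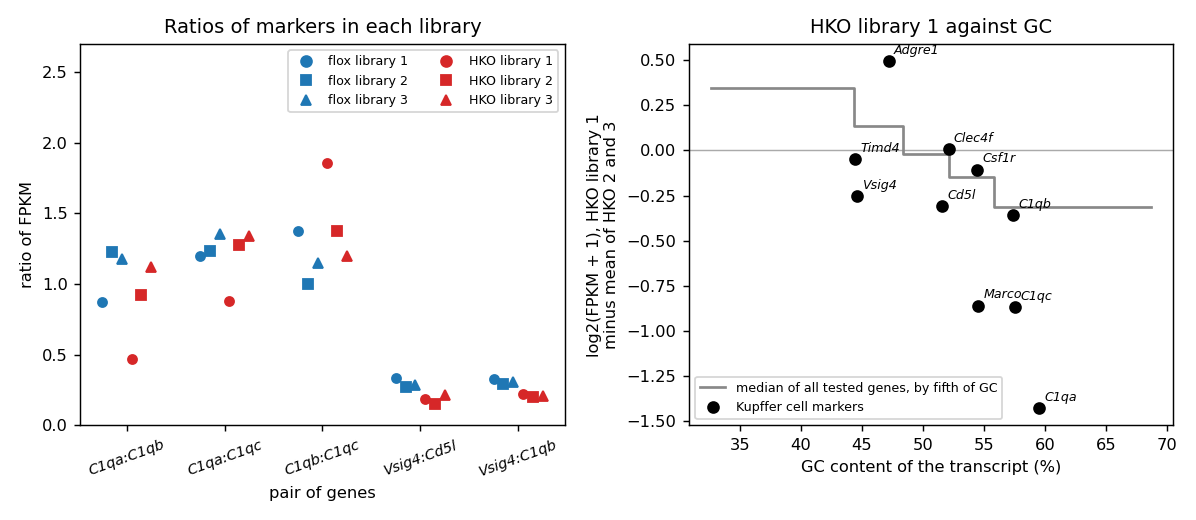
Left, ratios of FPKM for 5 pairs of markers in each library, flox in blue and HKO in red. Right, log2 FPKM + 1 in HKO library 1 minus the mean of HKO libraries 2 and 3, against transcript GC in percent, with black points for the markers and a grey line for the median of all tested genes in 5 bins of GC. C1qa lies lowest, at -1.43, and its ratio to C1qb in HKO library 1 is 0.473.

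The markers varied together from liver to liver, across the groups rather than between them. Flox library 2 was the lowest flox library for 10 of 10 markers, against 27.6% of all tested genes. HKO library 2 was the highest HKO library for 9 of 10, against 28.6%. HKO library 1 was the lowest HKO library for 3 of 10 (Marco, C1qa and C1qc), against 41% of all tested genes. Over all 6 livers, HKO library 2 ranked among the top 3 for all 10 markers, and flox libraries 1 and 3 for 9 each. Flox library 2 and HKO library 3 ranked there for none. In flox library 2 the markers lay between -0.77 (Vsig4) and -0.37 (C1qc) in log2 units relative to the mean of flox libraries 1 and 3, and only 1.42% to 6.72% of tested genes lay lower. Summed FPKM of the 10 markers was 294, 196 and 282 in flox livers against 200, 358 and 218 in HKO livers. The group means of these sums were 257 ± 53.3 and 259 ± 86.2 (SD, n = 3), a difference far smaller than the spread between the livers of either group.

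**Figure D4:**
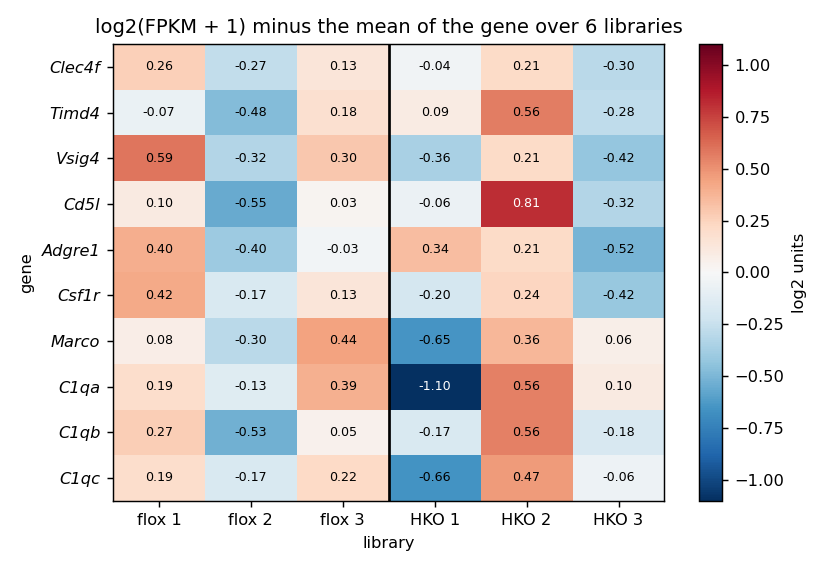
Each cell gives log2 of FPKM + 1 minus that gene's mean over the 6 libraries, in log2 units, with markers in rows and libraries in columns, flox left of the black line and HKO right of it. Flox 2 is below 0 and HKO 2 above 0 for all 10 markers, and C1qa in HKO 1 is the lowest value, -1.10.

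Ratios within a library do not depend on its depth or scaling, and 6 of the 45 pairs of markers had ratios that did not overlap between the groups. The background was 25.8% of all pairs of tested genes, a larger share than among the marker pairs. Vsig4 took part in 3 of the 6 and Cd5l in 3. The Vsig4 to Cd5l ratio was 0.336, 0.270 and 0.286 in flox and 0.186, 0.154 and 0.212 in HKO. Vsig4 to C1qb was 0.325, 0.291 and 0.308 in flox and 0.219, 0.202 and 0.209 in HKO. Timd4 to Vsig4 was 0.174 to 0.269 in flox and 0.305 to 0.408 in HKO. Clec4f to Cd5l was 1.003 to 1.14 in flox and 0.609 to 0.950 in HKO, Csf1r to C1qb was 0.263 to 0.316 and 0.198 to 0.239, and Cd5l to Csf1r was 3.42 to 4.10 and 4.87 to 6.58. These pairs were picked by their values and were not tested. Without HKO library 1 the count was 16 of 45, beside 36.6% of all pairs, and without HKO library 3 it was 17, beside 38%.

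Other macrophage genes were read beside the 10 markers. Of 20 further Kupffer cell and tissue macrophage genes 18 were tested, Aif1 and Sdc3 being under the minimum, and limma with BH called none higher and none lower (median log2 -0.05, adjusted p from 0.209 upward, background 0.488%). At an unadjusted p under 0.05 limma called 5 of them, 3 higher and 2 lower, beside 17% of all tested genes. Flox library 2 was the lowest flox library for 15 of the 18. The lysozyme gene Lyz2 was at 40.1 ± 12.2 FPKM in flox and 32.4 ± 3.86 in HKO, the protease gene Ctss at 19.2 ± 3.52 and 22.8 ± 9.03, and the iron exporter gene Slc40a1, which hepatocytes share, at 28.1 ± 9.37 and 37.4 ± 7.29 (SD, n = 3 each). The signalling adaptors Tyrobp (14.5 ± 1.09 and 13.5 ± 5.83) and Fcer1g (13.1 ± 2.25 and 16.7 ± 8.14) likewise overlapped. Groups did not overlap for 5 of the 18, a share near the 25.4% of all tested genes. These 5 are named after their values were seen. The scavenger receptor Msr1 (log2 0.57), the IgG receptor Fcgr1 (0.56) and the IL-18 inhibitor Il18bp (0.68) were higher on average in HKO, and the haemoglobin receptor Cd163 (-0.44) and the lectin Fcna (-0.59) lower. None of these 5 passed limma with BH, at adjusted p-values of 0.209 to 0.246.

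Among 12 transcription factors of Kupffer cells 10 were tested and limma with BH called none in either direction (median log2 0.12, lowest adjusted p 0.268). Limma called 1 of the 10 at an unadjusted p under 0.05, beside 17% of all tested genes. Spi1, which encodes PU.1, was at 3.65 ± 0.836 FPKM in flox and 4.14 ± 1.21 in HKO. Nr1h3, which encodes LXR-alpha and is also expressed by hepatocytes, was at 49.5 ± 3.64 and 37.3 ± 6.59 (log2 -0.41, limma with BH adjusted p = 0.268), with every HKO library below every flox library. It was the 1 of these 10 whose groups did not overlap, beside 25.4% of all tested genes. Maf was at 4.48 ± 0.771 and 6.06 ± 1.32, Id3 at 14.7 ± 1.91 and 12.9 ± 0.580, and Smad4 at 5.99 ± 0.242 and 6.44 ± 1.30 (SD, n = 3 each).

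Of 12 niche and growth signals 5 were tested and limma with BH called none. An unadjusted p under 0.05 by limma was found for 1 of the 5, beside 17% of all tested genes. Csf1, a ligand of CSF1R, was at 1.79, 1.73 and 2.13 FPKM in flox and 3.07, 3.37 and 2.87 in HKO. It was the 1 of the 5 tested whose groups did not overlap, beside 25.4% of all tested genes. Its log2 fold change of 0.51 (95% interval 0.21 to 0.81) came with a BH adjusted p of 0.119 in limma, so it did not pass. Il34, the other ligand, was under the minimum at 0.911 ± 0.234 and 0.776 ± 0.161. Tgfbr2 (7.68 ± 2.98 and 10.965 ± 2.64), Tgfb1 (3.29 ± 0.800 and 2.89 ± 1.03), Notch1 (1.91 ± 0.0957 and 2.25 ± 0.455) and the ligand gene Gdf2 (5.29 ± 0.522 and 4.60 ± 0.716) overlapped between groups.

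The hepatocyte-made partners of C1q and the genes of C3b handling were called by limma with BH in 0 of 10 tested, with a median log2 of 0.06. Limma's unadjusted p was under 0.05 for 1 of the 10, beside 17% of all tested genes. C3, whose fragment CRIg binds, was at 1463 ± 113 FPKM in flox and 1628 ± 137 in HKO, Serping1, which encodes the C1 inhibitor, at 495 ± 33.6 and 463 ± 31.9, and Cfi at 292 ± 40.5 and 303 ± 37.5. C1ra (132 ± 14.9 and 96.8 ± 16.3) and C1s1 (158 ± 20.5 and 125 ± 11.6), the protease partners of C1q named after their values were seen, were lower in every HKO library and did not pass (adjusted p of 0.246 and 0.328). They were the 2 of these 10 whose groups did not overlap, beside 25.4% of all tested genes. None of 11 tested genes of efferocytosis and scavenging passed limma with BH (median log2 0.07), and none of 10 genes of heme and iron recycling (median 0.09). In each list 2 were at an unadjusted p under 0.05, beside 17% of all tested genes. Groups did not overlap for 1 efferocytosis and scavenging gene with HKO higher and 3 with HKO lower, Lrp1 and Scarb1 among the latter. For heme and iron recycling it was 1 in each direction, and for all tested genes 25.4%. By voom on recovered reads, too, none of the 5 lists from macrophage transcription factors to iron recycling, nor the further macrophage genes, had a call. Of these, Lrp1, a clearance receptor, was at 73.5 ± 4.99 and 63.9 ± 6.37, Scarb1 at 58.8 ± 6.25 and 43.6 ± 12.0, Pros1 at 23.9 ± 4.54 and 27.6 ± 2.59, and the biliverdin reductase Blvrb at 89.0 ± 11.9 and 88.5 ± 20.7.

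The genes nearest in pattern to the markers' mean profile over the 6 libraries, out of 9401 tested protein-coding genes, began with Cd68, a lysosomal protein of macrophages (Pearson r = 0.98). It was followed by the extracellular superoxide dismutase Sod3 and by Plcl2 (0.98 and 0.97), Sirpa, which encodes a receptor on macrophages and other myeloid cells (0.97), Sirt4 (0.96) and Cdk10 (0.95). Cd68 was at 8.15, 4.96 and 7.44 FPKM in flox and 4.96, 10.6 and 4.71 in HKO. Of the candidates 38, or 0.404%, had an r above 0.9. The values are descriptions over 6 libraries of the same 2 groups, chosen for their size, and carry no test. Against the mean profile of the other 9 markers, r was 0.93 for C1qb and 0.90 for Clec4f, and 0.60 for C1qa and 0.51 for Adgre1.

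Other cell types of the liver were read from their own lists. The 8 pan-leukocyte genes summed to 30.2 to 40.8 FPKM in flox and 34.4 to 48.9 in HKO, with Lcp1 at 15.6 ± 2.20 and 17.1 ± 0.0628. Stellate cell markers summed to 72.1 to 115 and 99.9 to 117, and flox library 2 was the lowest flox library for 7 of 8 tested, as it was for the Kupffer cell markers. Sinusoidal endothelial markers, at 41.1 to 52.0 and 43.7 to 49.999, had flox library 2 lowest for 3 of 12, and hepatocyte markers for 0 of 10. Neutrophil markers were at 1.78 to 11.2 and 3.53 to 3.85 with the defining gene Ly6g at 0 in 5 of 6 libraries, and B and plasma cell markers at 2.65 to 5.71 and 2.23 to 5.59. Dendritic cell markers, mostly Cd74, which macrophages and B cells share, were at 55.9 to 90.9 and 35.4 to 84.3, and cholangiocyte markers, mostly Spp1, at 26.2 to 36.4 and 20.7 to 23.3. Erythroid transcripts were at 352 to 674 in flox and 105 to 209 in HKO, with all 5 tested members lower in every HKO library (12.6% of all tested genes) and 1, Hbb-bt, passing limma with BH (adjusted p = 0.0373, beside 0.488% of all tested genes called). Globin genes have near-identical copies that may have exchanged reads, which leaves their values uncertain. The part of any of these cell types in the marker levels was not tested.

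**Figure D5:**
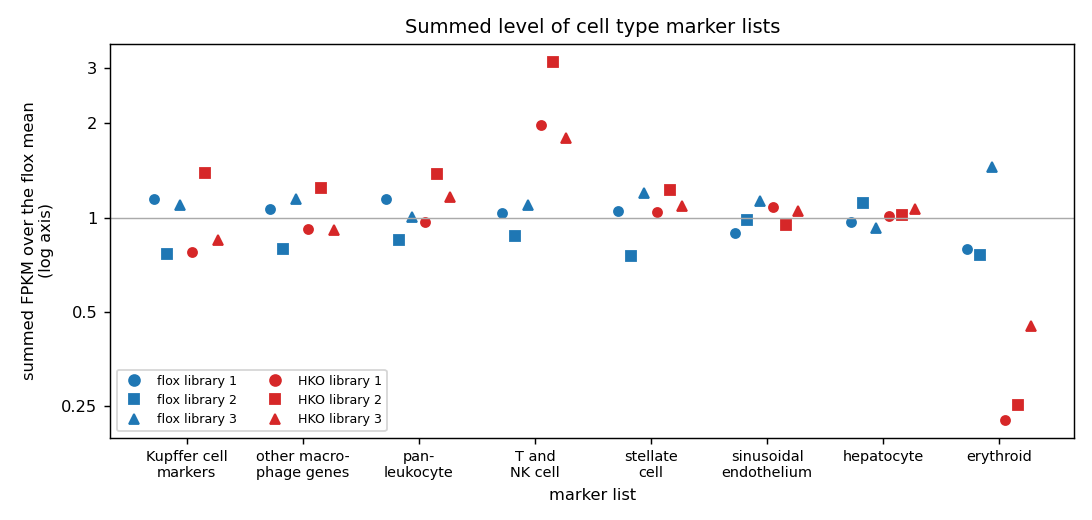
Summed FPKM of 8 marker lists in each library, divided by the flox mean of that list, on a log axis, with flox in blue, HKO in red and symbols for the library number. Kupffer cell markers run from 0.762 to 1.39 with both groups mixed. The summed T and NK cell genes, mostly Ccl5, Gzma and Nkg7, are higher and the summed erythroid genes lower in all HKO libraries.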

How the data were processed

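Per the series text, the authors aligned read pairs to GRCm38.p6 with HISAT2 2.0.5 and counted with featureCounts 1.5.0-p3. CASAVA and DESeq2 1.20.0 are further tools in the submitters' processing notes. Strand setting and annotation release: not given in the sources used here. Deposited values are FPKM per gene and library, over a deposited gene length. In each library 100% of FPKM times length were whole multiples of 1 step (tolerance 0.001), which gave the reads. The authors' library size was 0.925 to 1.08 times their sum.

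Analysis used R 4.3.3, limma 3.58.1 (trend, robust), statmod 1.5.0, Python 3.11.15 and matplotlib 3.10.9, with a pseudocount of 1, a mean FPKM of at least 1 and BH at 0.05, first tested on simulated data. Libraries of a group differed by a chi-square of 31.4 to 69.8 per degree of freedom. GC came from the longest protein-coding GENCODE M21 transcript. The markers, 18 gene lists (189 symbols, 188 found, 6 in 2 lists) and rules were chosen with earlier results of these data known. Lists name their 3 most abundant or passing genes (6 for macrophage lists), and the 6 genes nearest in pattern are named. Not every gene so named is described.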

Additional observations from a re-analysis of the deposited data

How the results depend on the processing

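No marker passed limma in any of 19 alternatives (0 of 10, or of 8 with a mean FPKM of at least 5). The median of the markers was -0.16 to -0.04 over other settings and -0.29 to 0.13 with a library left out. Of 188 marker values 174 kept their direction and 14 changed sign, none of them called. With a library left out, log2 fold changes ranged from -0.24 to 0.044 for Clec4f, -0.054 to 0.51 for Cd5l, -0.17 to 0.28 for Adgre1, -0.36 to 0.14 for Marco, -0.65 to 0.18 for C1qa, -0.10 to 0.31 for C1qb and -0.44 to 0.12 for C1qc. Adgre1 was at -0.021 with GC correction, with or without the replicate block, and the cause was not tested. Without a library, 0 to 2 markers and 8 to 17 of 45 ratio pairs did not overlap, beside 31.7% to 40.1% of all tested genes and 32.4% to 40.9% of all pairs. Over all genes 28 were called higher and 23 lower. A pseudocount of 0.1 gave 18 higher, no filter 0 and 1 (over 23371 genes), and a library left out 0 to 29 and 1 to 38. GC correction, chosen after the data were seen together with the counts of overlap without a library, gave 116 higher and 64 lower, and 5 and 10 with the replicate block. The replicate block alone gave 1 higher and 8 lower genes, and 0 markers. Deviations of same-numbered libraries within their groups had correlations of r = 0.15, -0.14 and -0.05 over all tested genes, in library order. With so few libraries per group these values cannot decide whether same-numbered libraries were paired, and a shared batch was not tested. Depth limits Timd4, Marco and Adgre1 most, with as few as 66, 92 and 109 reads in a library.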

Other observations

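Transcripts of recruited monocytes and of lymphocytes were read beside the resident markers. Of 14 recruited monocyte and lipid-associated macrophage genes 6 were tested, and limma with BH called none. At an unadjusted p under 0.05 limma called 4 of the 6, 3 higher and 1 lower, beside 17% of all tested genes. Limma's voom on the recovered reads called Plac8 (adjusted p = 0.0394). Plac8, expressed by monocytes and other leukocytes, was at 0.980 ± 0.343 FPKM in flox livers and 3.79 ± 0.898 in HKO livers (log2 1.27, BH adjusted p by limma 0.0525), and Ly6c2, the classical monocyte surface protein, at 0.506 ± 0.205 and 2.55 ± 1.47 (log2 1.14, adjusted p = 0.167). Plac8, Ly6c2 and Ccl2 (0.577 ± 0.207 in flox, 1.43 ± 0.677 in HKO) are the 3 genes called higher at an unadjusted p. All 3 reached the minimum mean FPKM of 1 only through the HKO libraries, in which they are higher on average. That count, the separation of Plac8 and Ly6c2 and the voom call thus support nothing about the list. The value of Ly6c2 is uncertain, since it has a near-identical relative with which reads can be shared. Ccr2, the chemokine receptor of recruited monocytes, was under the minimum for testing, at 0.212 ± 0.0529 and 0.353 ± 0.0621, and Cx3cr1 was at 0.0974 ± 0.0321 and 0.0638 ± 0.0277. Spp1 (29.2 ± 4.45 and 20.2 ± 0.995) and Cd9 (11.2 ± 6.36 and 10.5 ± 1.42) were the most abundant of this list, and other liver cells express both. Spp1 was lower in every HKO library than in any flox library and did not pass (log2 -0.50, limma with BH adjusted p = 0.163).

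The 12 T and NK cell genes summed to 3.85 to 4.86 FPKM in flox and 7.94 to 13.9 in HKO. Only 3 of them reached the minimum for testing, and none passed limma with BH, nor voom on the recovered reads. All 3 were higher at an unadjusted p under 0.05 by limma, beside 17% of all tested genes. The granzyme Gzma was at 0.624 ± 0.335 and 2.49 ± 0.782 (adjusted p = 0.0824), the chemokine Ccl5 at 1.504 ± 0.193 and 3.28 ± 1.61 and the granule protein Nkg7 at 0.723 ± 0.178 and 1.39 ± 0.0819. Gzma and Nkg7 reached the minimum only through the HKO libraries, in which they are higher, so the count over the tested genes supports nothing. The T cell receptor subunit Cd3e was under the minimum, at 0.0948 to 0.683 over the 6 libraries. Cd4, also under the minimum, was the only gene of the list with a lower mean in HKO (0.357 ± 0.0805 in flox, 0.232 ± 0.160 in HKO).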
